A study of Mus musculus with 4 samples.

Results

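Withdrawal from the cell cycle is a step of muscle differentiation, and 8 genes of the machinery that controls it were followed here in mouse myoblasts, the proliferating precursors of muscle fibres. They are Cdkn1a, Cdkn2b, Rb1, Rbl1, Ccnd1, Ccnd3, E2f2 and Ccng1, chosen by name out of the 3760 genes in the table the authors deposited. All 8 were found there. The cells were cultured from adult C57BL/6 skeletal muscle, and the labels call them Twist2-positive. All cultures received a retrovirus for 24 h, either Twist2-IRES-GFP or GFP alone, so the transcription factor Twist2, of the basic helix-loop-helix class, was added in one arm and both arms carried a GFP virus. Growth medium contained 20% fetal bovine serum and followed for another 24 h, and differentiation medium contained 2% horse serum, with the differentiated cells labelled as day 5. All cultures were kept with 2% primocin. The 4 groups were Twist2 differentiation medium, Twist2 growth medium, GFP differentiation medium and GFP growth medium, with 1 library each. No replicate stands behind any difference, no test was possible, and an effect of a library cannot be told apart from that of its condition. The labels give neither the promoter of the virus nor the share of infected cells, and do not say whether the cells are 1 line or a pool.

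In G1 phase, D-type cyclins bind the kinases Cdk4 and Cdk6, which phosphorylate the pocket proteins Rb1 and Rbl1. Unphosphorylated pocket proteins bind E2F factors and keep genes of DNA replication off. The inhibitors p21 (Cdkn1a) and p15 (Cdkn2b) restrain cyclin-dependent kinases. In muscle, p21, Rb1 and cyclin D3 are known to be high in differentiating cells, whereas cyclin D1 is known from proliferating myoblasts.

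Promoter sequences are shown for members whose regulation is best known, to set beside the levels that follow. The RefSeq promoter table (GRCm38.p6) held 9 starts of 6 members, and none of Rb1 or Ccnd1. Each sequence is the 250 bases before an annotated start, read 5′ to 3′ on the gene's strand. Cdkn1a and Ccng1 are both known targets of p53, and capitals mark matches to the p53 half-site in these 2 windows. The first is chr17:29090729-29090978 (plus strand) and the second chr11:40755287-40755536 (minus strand).
Cdkn1a, upstream start: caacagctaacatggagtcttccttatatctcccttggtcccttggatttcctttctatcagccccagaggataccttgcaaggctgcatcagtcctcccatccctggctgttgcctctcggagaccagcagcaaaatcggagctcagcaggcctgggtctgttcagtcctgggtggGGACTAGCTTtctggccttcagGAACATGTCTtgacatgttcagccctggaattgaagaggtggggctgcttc
Ccng1: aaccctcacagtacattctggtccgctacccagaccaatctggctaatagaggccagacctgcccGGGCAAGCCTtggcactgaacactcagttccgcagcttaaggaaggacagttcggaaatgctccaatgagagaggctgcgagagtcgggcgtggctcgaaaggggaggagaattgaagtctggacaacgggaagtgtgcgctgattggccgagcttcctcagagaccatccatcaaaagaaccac

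Counting from -1 at the base before the start, the Cdkn1a matches lie at -73 to -64 and -51 to -42, and the Ccng1 match at -185 to -176. The bases tgacatgttc straight after the second Cdkn1a match miss the half-site by 1 base, so they are not in capitals. A half-site was found in 7.13% of the 32851 upstream windows of the table. E-boxes (CANNTG, the same on both strands) are the motif class that Twist proteins and the muscle factors of the MyoD family bind. They are in capitals below for the downstream Cdkn1a start, chr17:29093519-29093768 (plus strand), and for 1 of 2 E2f2 starts, chr4:136172024-136172273 (plus strand). Both genes were at least 2-fold lower with Twist2 in growth medium, Cdkn1a not under every scaling tried. Upstream E-boxes were also found in Cdkn2b (-37 to -32), which was 2-fold higher with Twist2 there, and in Rbl1 (-183 to -178), which was within 2-fold. A further E-box of the downstream Cdkn1a entry spans its start and is not in capitals.
Cdkn1a, downstream start: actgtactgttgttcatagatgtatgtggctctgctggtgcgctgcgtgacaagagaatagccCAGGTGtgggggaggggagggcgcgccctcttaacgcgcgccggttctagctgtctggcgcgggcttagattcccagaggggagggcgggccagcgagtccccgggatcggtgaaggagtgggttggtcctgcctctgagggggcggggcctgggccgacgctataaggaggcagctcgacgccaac
E2f2: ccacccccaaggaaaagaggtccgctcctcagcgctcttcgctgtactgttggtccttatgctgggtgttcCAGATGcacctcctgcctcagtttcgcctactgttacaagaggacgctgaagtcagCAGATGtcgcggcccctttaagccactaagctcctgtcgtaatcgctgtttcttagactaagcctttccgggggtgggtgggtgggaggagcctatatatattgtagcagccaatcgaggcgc

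E-boxes are common letters, present in 66.2% of the upstream windows of all genes. Neither Ccnd3 window held one, nor did the window of the upstream Cdkn1a start. Ccnd3 too was 2-fold lower with Twist2 in growth medium, though not under every scaling, and so was Rb1, which has no entry. E2F sites were searched on both strands as TTTCCCGC, TTTCGCGC, TTTGGCGC and TTTGCCGC, which together occurred in 2.26% of the whole entries of 300 bases. They were found in Rbl1 and E2f2, both known E2F targets, and the 30 bases around each match are given with the match in capitals. The windows are chr2:157204534-157204563 (minus strand) and chr4:136172294-136172323 (plus strand), and in E2f2 the match lies 40 to 47 bases after the RefSeq start. By the GENCODE annotation used for gene positions below, E2f2 starts at chr4:136172394, so this match lies before that start. The end of this E2f2 entry was found in 0 GENCODE transcripts of the gene.
Rbl1, E2F site: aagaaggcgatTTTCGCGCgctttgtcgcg
E2f2, E2F site: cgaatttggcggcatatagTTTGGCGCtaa

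A match of letters is a description and was not tested for binding. No match of one motif in these entries overlapped a match of another.

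The values are CPM, the reads of a gene scaled to a divisor of its library. Recovered reads of the 8 members ran from 21 to 29768, and the divisors from 9235281 to 12362290. Twist2 stood at 674 CPM and 1438 CPM in the Twist2 libraries, against 0 reads and 1 read in the GFP libraries, as the virus labels state. The GFP libraries thus held next to no Twist2 reads, although the labels call the cells Twist2-positive. All 8 muscle markers were in the table, summing to 10455 CPM in Twist2 differentiation medium and 1540 CPM in Twist2 growth medium, and to 50554 CPM in GFP differentiation medium and 3509 CPM in GFP growth medium. None of the 5 endothelial and none of the 5 leukocyte markers is in the table, and 2 of 7 fibroblast markers (Ly6a and Dcn) and 2 of 5 pericyte markers (Rgs5 and Abcc9) are. The 2 fibroblast markers summed to 67.9 and 43.5 CPM in Twist2 differentiation and growth medium, against 1.19 and 12.9 CPM in GFP differentiation and growth medium, where Ly6a had 0 reads after differentiation. The 2 pericyte markers summed to 24.7 and 85.2 CPM with Twist2, against 51.1 and 52.0 CPM with GFP. Their part in the results was not tested. In bulk RNA, fewer cells of a type and less RNA per cell cannot be told apart.

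Only selected genes are in the table: each reached 10 CPM in 2 or more libraries and was 2-fold or more away from GFP growth medium in 1 or more of the authors' 3 comparisons. By the authors' deposited table, Cdkn1a, Cdkn2b and Ccnd3 passed in all 3 comparisons, Rb1, Rbl1, Ccnd1 and E2f2 in 2, and Ccng1 in 1. Each member therefore had to differ somewhere, and its counts are read beside those of all listed genes. Ratios below are log2 ratios of CPM + 1, "2-fold" means a log2 ratio of at least 1 in size, and intervals are 95% counting intervals of the ratio without the added 1, which cover counting error only.

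Positions of the 8 genes are those of GENCODE M21 on GRCm38. Cdkn1a (chr17:29090976-29100727, plus strand) was the most abundant member after differentiation in both cell types. It had 2286 CPM in Twist2 differentiation medium against 382 CPM in Twist2 growth medium, and 3223 CPM in GFP differentiation medium against 787 CPM in GFP growth medium. Both differentiated libraries stood above both growing ones, and Twist2 was the lower of the viruses in each medium. The log2 ratio of differentiation to growth was 2.58 in Twist2 cells (interval 2.53 to 2.63) and 2.03 in GFP cells (2.00 to 2.07), or 5.98-fold and 4.10-fold in CPM. Scaling to reads outside the table put both log2 ratios at 2.83. Twist2 cells had a log2 ratio to GFP cells of -1.04 in growth medium (-1.10 to -0.99), which lost the 2-fold call under size factors (-0.80) and median centring (-0.94). In differentiation medium that log2 ratio was -0.50 (-0.52 to -0.47), within 2-fold, but -1.09 with scaling to unlisted reads, those outside the table.

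Cdkn2b (chr4:89306299-89311039, minus strand), which encodes an inhibitor of Cdk4 and Cdk6, behaved otherwise. It had 35.2 CPM in Twist2 differentiation medium against 36.5 CPM in Twist2 growth medium, and 48.3 CPM in GFP differentiation medium against 16.5 CPM in GFP growth medium. The GFP growth library alone was low, and the counting intervals of both Twist2 libraries overlapped. The log2 ratio of differentiation to growth was -0.05 in Twist2 cells (-0.25 to 0.15) and 1.49 in GFP cells (1.28 to 1.82). It was the single member at least 2-fold higher with Twist2 in growth medium (1.10, interval 0.88 to 1.42), a call that a pseudocount of 5 CPM ended (0.95). In differentiation medium the ratio of Twist2 to GFP cells was -0.45 (-0.65 to -0.26), or -1.03 with scaling to unlisted reads.

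Rb1 (chr14:73183673-73325822, minus strand), the retinoblastoma protein gene, was lower with Twist2 in both media. It had 38.4 CPM in Twist2 differentiation medium and 32.1 CPM in Twist2 growth medium, against 152 CPM in GFP differentiation medium and 82.4 CPM in GFP growth medium. Both Twist2 libraries lay under both GFP libraries. Twist2 over GFP, the log2 ratio was -1.95 in differentiation medium (-2.13 to -1.83) and -1.33 in growth medium (-1.55 to -1.18), or 3.95-fold and 2.57-fold lower in CPM. The direction and the 2-fold call in these 2 comparisons held under every scaling and pseudocount tried. The ratio of differentiation to growth was smaller, at 0.25 in Twist2 cells (0.06 to 0.46) and 0.87 in GFP cells (0.75 to 1.01), and the value of GFP cells passed 2-fold under all 3 other scalings (1.22 to 1.66). Rb1 has 6015 bp of exon, and the 721 listed genes of its length group (4517 to 6219 bp) had median log2 ratios of Twist2 to GFP cells of -0.03 in differentiation medium and -0.09 in growth medium. From the shortest to the longest length group this median fell from 0.43 to -0.73 in differentiation medium. In growth medium it fell from 0.06 to -0.35. Whether gene length plays a part in the ratios of members, or in shares of genes of unlike length, was not tested.

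Rbl1 (chr2:157145893-157204534, minus strand) encodes the related pocket protein p107 and was 2-fold different between media but not between viruses. It had 10.5 CPM in Twist2 differentiation medium against 22.1 CPM in Twist2 growth medium, and 7.25 CPM in GFP differentiation medium against 26.0 CPM in GFP growth medium. Both growing libraries were above both differentiated ones. After differentiation the log2 ratio was -1.01 in Twist2 cells (-1.39 to -0.76) and -1.71 in GFP cells (-2.25 to -1.45). The value of Twist2 cells was short of 2-fold with a pseudocount of 5 CPM (-0.81) and with each other scaling (-0.96 to -0.76), and that of GFP cells with scaling to unlisted reads (-0.98). Between the viruses it was 0.48 in differentiation medium (0.10 to 0.98) and -0.22 in growth medium (-0.49 to 0.03), each of which changed sign under 1 scaling. The 2 pocket protein genes can also be compared inside a library, where library scaling cancels. Rb1 held 78.5% of the reads of the pair in Twist2 differentiation medium (exact binomial interval 75.02 to 81.7%) and 59.2% in Twist2 growth medium (55.1 to 63.1%), against 95.4% in GFP differentiation medium (94.2 to 96.4%) and 76.0% in GFP growth medium (73.3 to 78.6%). The intervals of Twist2 and GFP cells did not overlap in either medium, with the Rb1 share lower in Twist2 cells.

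**Figure D1:**
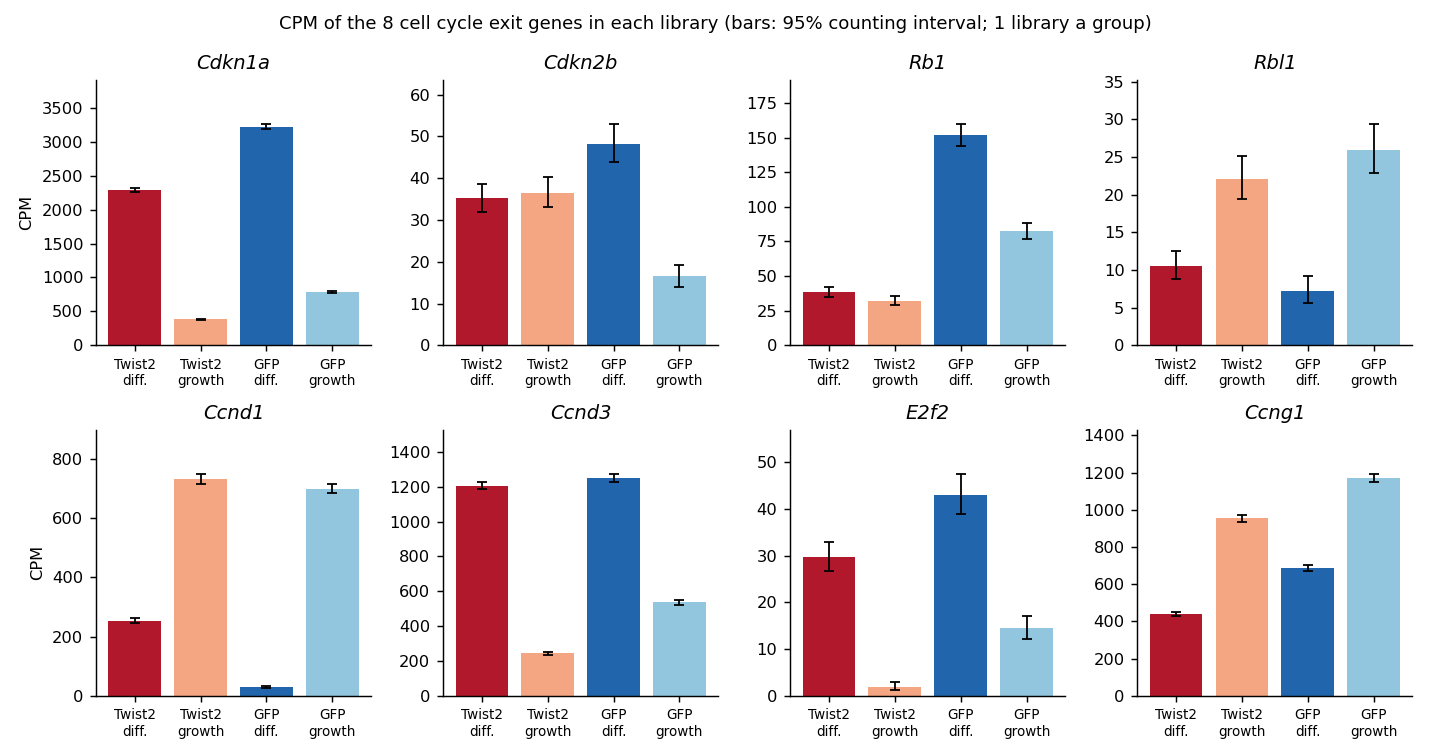
CPM (vertical axis, linear, from 0) of each of the 8 genes in the 4 libraries, with 95% counting intervals. Cdkn1a, Ccnd3 and E2f2 are high in both differentiated libraries, Rb1 is low in both Twist2 libraries, and Ccnd1 is at 254 CPM in differentiated Twist2 cells against 29.99 CPM in differentiated GFP cells.

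Ccnd1 (chr7:144929931-144939925, minus strand), the gene of cyclin D1, had the largest ratio of the 8 between the viruses after differentiation. It had 254 CPM in Twist2 differentiation medium against 732 CPM in Twist2 growth medium, and 29.99 CPM in GFP differentiation medium against 700 CPM in GFP growth medium. The growing libraries were nearly alike, and of the differentiated ones GFP was far the lower. Differentiation over growth, the log2 ratio was -1.52 in Twist2 cells (-1.59 to -1.47) and -4.50 in GFP cells (-4.72 to -4.37), or 2.88-fold and 23.3-fold lower in CPM. In GFP cells this was the 85th lowest ratio of all listed genes. Twist2 cells stood 8.46-fold above GFP cells in differentiation medium (log2 ratio 3.04, interval 2.90 to 3.26) and 1.05-fold above them in growth medium (log2 ratio 0.06, interval 0.02 to 0.11). Exons of Ccnd1 share 23.4% of their bases with LTO1 on the opposite strand, those of Cdkn1a share 7.68% and those of Ccnd3 4.11% with 1 opposite gene each, and those of Rb1 share 6.78% with Lpar6 and 8.11% with Rcbtb2. Whether counting used strand is not known, so reads of such pairs cannot be told apart.

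Ccnd3 (chr17:47505051-47599691, plus strand), the gene of cyclin D3, reached nearly the same CPM in both differentiated libraries, though not under every scaling. It had 1205 CPM in Twist2 differentiation medium against 244 CPM in Twist2 growth medium, and 1248 CPM in GFP differentiation medium against 536 CPM in GFP growth medium. The Twist2 growth library was the lowest. The log2 ratio of differentiation to growth was 2.30 in Twist2 cells (2.24 to 2.36) and 1.22 in GFP cells (1.17 to 1.27). Between the viruses Ccnd3 had a log2 ratio of -0.05 in differentiation medium (-0.09 to -0.02), or -0.65 with scaling to unlisted reads. In growth medium it was -1.13 (-1.20 to -1.07), which fell short of 2-fold under size factors (-0.89).

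The make-up of the D cyclins within a library differed with medium and virus. Per kilobase of exon, Ccnd3 made up 52.9% of the level of Ccnd1, Ccnd2 and Ccnd3 in Twist2 differentiation medium and 13.5% in Twist2 growth medium, against 85.8% in GFP differentiation medium and 25.8% in GFP growth medium. Ccnd1 made up 20.8% and 75.5% in the Twist2 libraries in that order of media, against 3.84% and 62.7% in the GFP libraries. The rest was Ccnd2, which is no member: it had 643 CPM in Twist2 differentiation medium against 214 CPM in Twist2 growth medium, and 162 CPM in GFP differentiation medium against 255 CPM in GFP growth medium. The lowest of the 3 D cyclin genes was Ccnd1 in both differentiated libraries. Summed per kilobase, the D cyclins came to 260 and 206 CPM per kb in Twist2 differentiation and growth medium, against 166 and 237 CPM per kb in the GFP libraries. The level of Cdkn1a per kilobase was 2.48 times that sum in Twist2 differentiation medium and 0.522 times in Twist2 growth medium, against 5.47 times in GFP differentiation medium and 0.935 times in GFP growth medium. This ratio, like the shares, is free of library scaling.

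**Figure D2:**
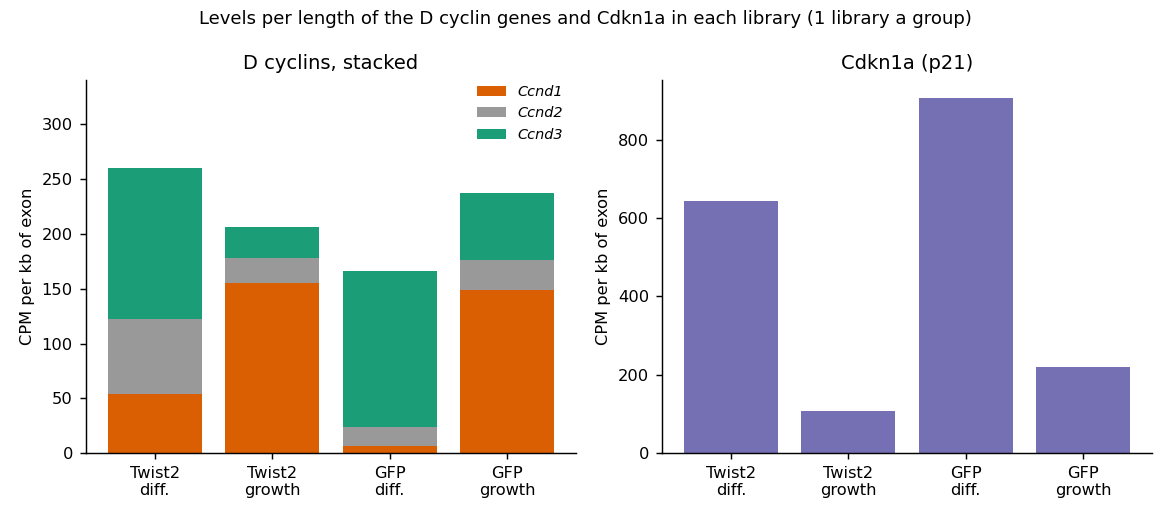
Left, CPM per kb of exon of Ccnd1, Ccnd2 and Ccnd3 stacked in each library; right, the same measure for Cdkn1a; both axes are linear from 0. Ccnd3 takes 85.8% of the stack in differentiated GFP cells and 52.9% in differentiated Twist2 cells, where Ccnd1 keeps 20.8%.

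E2f2 (chr4:136172394-136196057, plus strand) encodes an E2F factor of the activating class. It had 29.7 CPM in Twist2 differentiation medium against 1.90 CPM (21 reads) in Twist2 growth medium, and 43.0 CPM in GFP differentiation medium against 14.5 CPM in GFP growth medium. The differentiated libraries were the higher pair, and the Twist2 growth library was close to 0. The log2 ratio of differentiation to growth was 3.40 in Twist2 cells (3.33 to 4.68) and 1.51 in GFP cells (1.29 to 1.86), and the ratio of Twist2 to GFP cells was -2.42 in growth medium (-3.67 to -2.26) and -0.52 in differentiation medium (-0.74 to -0.33), or -1.11 there with scaling to unlisted reads. With few reads, the added 1 CPM shrinks these values: in CPM alone E2f2 was 15.6-fold higher after differentiation in Twist2 cells and 7.63-fold lower with Twist2 in growth medium.

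Ccng1 (chr11:40748552-40755311, minus strand) encodes cyclin G1, which is not a kinase-activating cyclin of G1 phase but a p53 target. It had 440 CPM in Twist2 differentiation medium against 954 CPM in Twist2 growth medium, and 686 CPM in GFP differentiation medium against 1169 CPM in GFP growth medium. Both growing libraries were above both differentiated ones. Its log2 ratio of differentiation to growth was -1.11 in Twist2 cells (-1.16 to -1.07) and -0.77 in GFP cells (-0.81 to -0.72). The 2-fold call in Twist2 cells was lost with median centring (-0.89) and with scaling to unlisted reads (-0.86). Twist2 cells were lower than GFP cells by less than 2-fold in both media, with log2 ratios of -0.64 (-0.69 to -0.59) in differentiation medium and -0.29 (-0.33 to -0.26) in growth medium. Scaling to unlisted reads took the first of these to -1.24. Cdkn1a and Ccng1 thus lay on opposite sides of 0 in both differentiation responses, except that scaling to unlisted reads put Ccng1 at 0.03 in GFP cells. A part of p53 in these values was not tested.

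Of the 8 genes counted together, differentiation in Twist2 cells left 3 higher by 2-fold or more and 3 lower, beside 26.2% and 24.5% of all 3760 listed genes. In GFP cells 4 were higher and 2 lower, beside 32.1% and 41.1%. The members' median log2 ratio was 0.10 in Twist2 cells and 1.04 in GFP cells, where all listed genes had medians of -0.22 and -0.40. With Twist2 in growth medium 4 members were lower and 1 was higher, beside 11.5% and 4.89% of listed genes. In differentiation medium 1 member was lower, Rb1, and 1 higher, Ccnd1, beside 23.1% and 26.6%. With scaling to unlisted reads 5 members were lower there, and 1 was lower in each differentiation response. The GFP differentiation and growth medium comparisons are 2 of the 3 on which genes entered the table, and nothing is read from the size of their counts. The other comparisons share libraries with those 3, so their counts are not free of this selection.

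**Figure D3:**
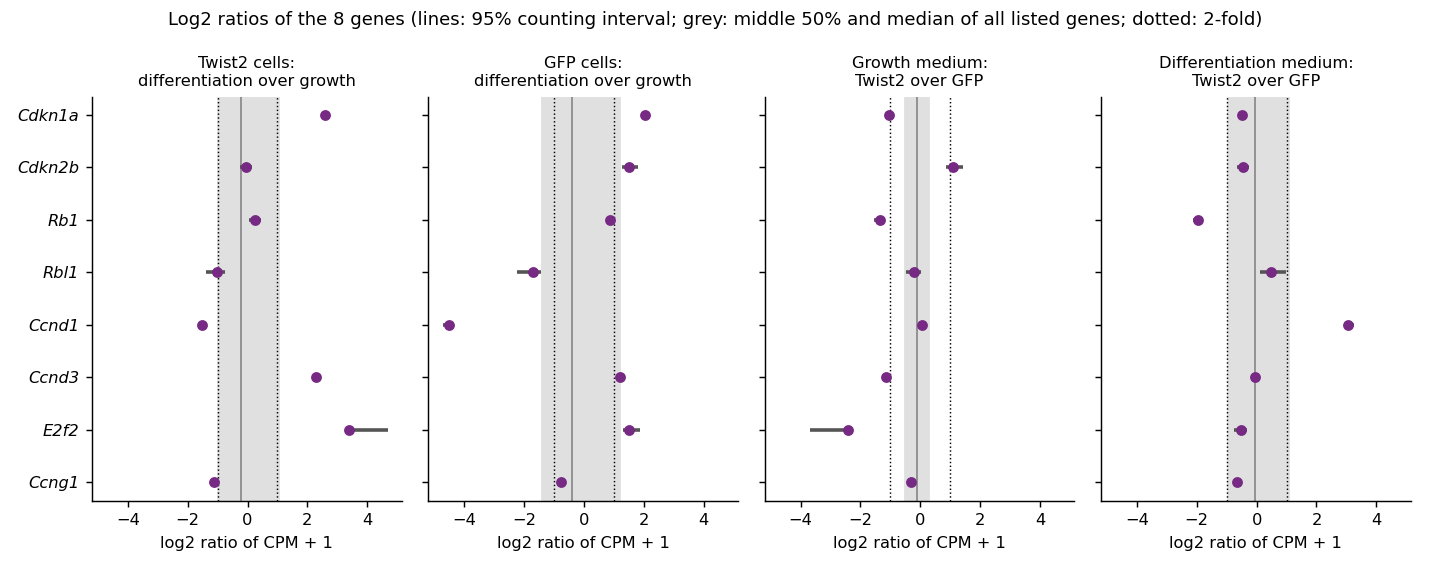
Log2 ratio of CPM + 1 (horizontal axis) of the 8 genes in the 4 comparisons, with 95% counting intervals as lines. The grey band is the middle 50% of all listed genes and dotted lines mark 2-fold; Ccnd1 lies at -4.50 in GFP cells, -1.52 in Twist2 cells and 3.04 for Twist2 over GFP in differentiation medium.

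How far the 2 differentiation responses differed was measured as the log2 ratio of Twist2 cells less the log2 ratio of GFP cells, with an exact conditional interval from the 4 read counts. Ccnd1 had 2.98 (2.83 to 3.21), E2f2 1.90 (1.69 to 3.16) and Ccnd3 1.08 (1.01 to 1.16). Cdkn2b was the single member at or below -1, with -1.54 (-1.94 to -1.27). That made 3 members at 1 or more and 1 at -1 or less, beside 25.5% and 12.6% of listed genes. Cdkn1a (0.54), Rbl1 (0.70), Rb1 (-0.62) and Ccng1 (-0.35) stayed between these bounds, Rb1 with the exception of scaling to unlisted reads (-1.16). The value of Ccnd3 was under 1 with size factors (0.78), median centring (0.90) and scaling to unlisted reads (0.54). That of Cdkn1a was 0.24, 0.36 and 0.003 under the same scalings, in that order. These intervals compare 4 libraries and are no test of the conditions.

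Compared per kilobase of exon, the order of the 8 genes shifted with medium. In Twist2 differentiation medium Cdkn1a (643 CPM per kb) stood first and Ccnd3 (137) second, against Ccng1 (272) first and Ccnd1 (155) second in Twist2 growth medium. GFP differentiation medium had Cdkn1a (907) and Ccng1 (195) on top, against Ccng1 (333) and Cdkn1a (221) in GFP growth medium. The lowest were Rbl1 in both differentiated libraries, with 1.75 CPM per kb in Twist2 and 1.21 in GFP cells, and E2f2 in both growing ones, with 0.389 and 2.96 CPM per kb. Neighbours in the order whose counting intervals overlapped were Rb1 and E2f2 in Twist2 differentiation medium, Ccnd3 and Cdkn2b in Twist2 growth medium, and Rb1 and Cdkn2b in GFP growth medium.

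By the smallest distance between centred log2 profiles over the 4 libraries, among 3595 genes averaging 10 CPM or more, the genes most like Cdkn1a were Cand2 (distance 0.21) and Creld1 (0.24). For Ccnd3 they were Gpt2 (0.21) and Slc6a6 (0.22), for E2f2 H19 (0.24) and Frmpd1 (0.42), and for Cdkn2b Lgals9 (0.34) and 1600002H07Rik (0.37). For Rb1 they were Slc4a7 (0.15) and Gabrb2 (0.22), for Ccnd1 Fbxo5 (0.33) and Gnb4 (0.36), for Rbl1 Rps12 (0.07) and Dock9 (0.11), and for Ccng1 Tax1bp1 (0.05). A profile of 4 points separates few genes, so these names are a description.

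The wider pathway was read from 8 gene lists, of whose 113 names 71 are in the table, 63 of them other than the members. A name outside the table is not shown to be silent. Of 8 inhibitor genes of cyclin-dependent kinases only Cdkn1a and Cdkn2b are listed. Of 10 pocket protein and MuvB complex genes 4 are listed, and besides Rb1 and Rbl1 these are Foxm1 and Lin9. Foxm1, a transcription factor of mitotic genes, had 24.9 CPM in Twist2 differentiation medium against 109 CPM in Twist2 growth medium, and 4.55 CPM in GFP differentiation medium against 57.8 CPM in GFP growth medium. It was thus lower after differentiation in both (log2 ratios -2.09 and -3.41) and higher with Twist2 in differentiation medium (2.22).

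Among 5 listed E2F and DP genes, E2f8, which encodes an atypical repressor, was on the same side as E2f2, with log2 ratios of 1.14 in Twist2 cells and 1.39 in GFP cells. E2f7, the related repressor, lay on the other side: it had 7.28 CPM in Twist2 differentiation medium against 17.3 CPM in Twist2 growth medium (-1.14), and 0 reads in GFP differentiation medium against 11.7 CPM in GFP growth medium, at least 36.02-fold lower by a floor of 3 reads in the library. E2f5 was 2-fold lower in GFP cells (-1.63), and Tfdp2, an E2F partner, was 2-fold lower with Twist2 in differentiation medium (-1.31).

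Cyclins, kinases and their activators, which include Ccnd1 and Ccnd3, were mostly lower after differentiation, 9 of 13 at least 2-fold in Twist2 cells and 10 of 13 in GFP cells, beside 24.5% and 41.1% of all listed genes, with medians of -1.52 and -2.48. Ccnb2 (-4.19 in Twist2 and -5.76 in GFP cells) and Ccna2 (-2.81 and -5.46) were among the lowest, the first a mitotic cyclin and the second an S phase cyclin. Cdk2, the partner of cyclins E and A, went against them with 2.08 in Twist2 cells and 2.63 in GFP cells. Cdk4, the partner of the D cyclins, had 480 CPM in Twist2 differentiation medium against 495 CPM in Twist2 growth medium, and 148 CPM in GFP differentiation medium against 472 CPM in GFP growth medium. Of the 13 genes 9 were at least 2-fold higher with Twist2 than with GFP in differentiation medium and 0 lower (median 1.69), beside 26.6% and 23.1% of all listed genes, a count of 7 higher and 1 lower with scaling to unlisted reads. Its reference, GFP differentiation medium, also took part in the selection of genes, so this count is not free of that selection.

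Of 21 listed replication genes that E2F factors are known to activate, 9 were 2-fold or more lower after differentiation in Twist2 cells (median -0.93) and 21 in GFP cells (median -2.47), beside 24.5% and 41.1% of all listed genes. The count in GFP cells was 19 under each other scaling, and none was higher in either cell type. In differentiation medium 19 of 21 were higher with Twist2 (median 2.15), beside 26.6% of all listed genes, among them Uhrf1 (3.12), Chaf1b (3.08) and Tk1 (2.91), and 14 of 21 were so under scaling to unlisted reads. GFP differentiation medium held only 20, 8 and 2 reads of these 3 genes, so the added 1 CPM shrinks their values and sets their order. All 12 mitosis genes were at least 2-fold lower after differentiation in both cell types, beside 24.5% and 41.1% of all listed genes. Their medians were -3.22 in Twist2 cells and -4.82 in GFP cells, or -5.34 in GFP cells with genes at 0 reads set to their floor. The GFP differentiation and growth medium comparisons helped decide which genes entered the table, so nothing is read from the size of list counts in them. The GFP differentiation library is also the reference for Twist2 over GFP in differentiation medium. All 21 replication genes passed 2-fold in GFP differentiation, which favours genes low in that library. The list counts for Twist2 over GFP in differentiation medium are therefore not free of this selection. Mki67, a proliferation marker, had 22.00 CPM in Twist2 differentiation medium against 411 CPM in Twist2 growth medium, and 0.433 CPM in GFP differentiation medium against 248 CPM in GFP growth medium. In growth medium the median log2 ratio of Twist2 to GFP cells was 0.32 for replication and 0.74 for mitosis genes, with 1 of 21 and 2 of 12 at least 2-fold higher, beside 4.89% of all listed genes. These counts were 2 of 21 and 4 of 12 with size factors, 1 of 21 and 4 of 12 with median centring, and 0 of 21 and 2 of 12 with scaling to unlisted reads.

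Of 12 listed p53 targets, 2 were at least 2-fold higher and 2 lower after differentiation in Twist2 cells, beside 26.2% and 24.5% of all listed genes. In GFP cells 3 were higher and 4 lower, beside 32.1% and 41.1%. Median centring and scaling to unlisted reads each gave 4 higher and 1 lower in Twist2 cells, and the other scalings gave 1 or 2 lower in GFP cells. Their median in GFP cells was -0.23 but 0.12 to 0.56 under the other scalings. Beside Cdkn1a, the 2-fold higher ones were Btg2 in Twist2 cells (2.12) and Eda2r (1.93) and Fas (1.80) in GFP cells, and Pidd1 was lower in both (-1.27 and -2.70). In growth medium 4 of the 12 were lower with Twist2, namely Cdkn1a, Gadd45a (-1.45), Pmaip1 (-1.24) and Rrm2b (-1.02), beside 11.5% of all listed genes, but 1 of 12 with size factors and 2 of 12 with median centring. The 5 listed growth arrest genes, 2 of which are also p53 targets, had 1 higher and 1 lower in Twist2 cells and 1 higher and 2 lower in GFP cells, beside the same shares of all listed genes. Median centring and scaling to unlisted reads each gave 3 higher in Twist2 cells, and in GFP cells they gave 1 and 0 lower. Btg2, an antiproliferative gene, had 236 CPM in Twist2 differentiation medium against 53.5 CPM in Twist2 growth medium, and 81.4 CPM in GFP differentiation medium against 91.0 CPM in GFP growth medium.

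**Figure D4:**
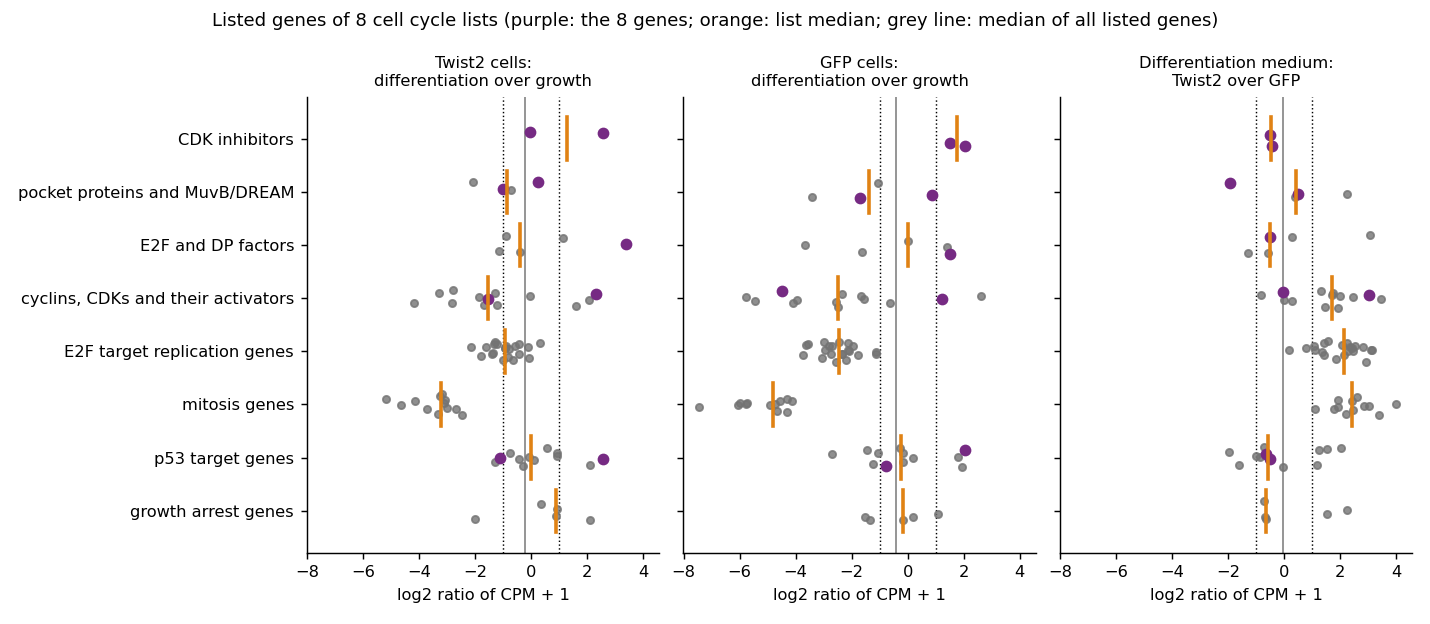
Log2 ratio of CPM + 1 (horizontal axis) of each listed gene in 8 cell cycle lists (rows), for the 2 differentiation responses and for Twist2 over GFP in differentiation medium. Orange bars are list medians; replication genes centre on -0.93 in Twist2 cells, -2.47 in GFP cells and 2.15 between the viruses.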

How the data were processed

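Total RNA of the 4 samples was extracted with Trizol and made into libraries by Illumina's standard procedure, per the labels. TopHat2 2.0.0, DESeq2 1.6.3 and GRCm38 (mm10) are listed in the submitters' processing notes with no role stated, and neither the counting program nor its annotation and strand setting was found in any label or header. The authors deposited CPM values and 3 columns of log2 ratios for 3760 selected genes. The authors' log2 columns matched log2 ratios of CPM + 1 and served only to show how genes were selected. Every CPM value was a whole multiple of the value of 1 read within 0.001 reads, which gave the reads. The divisors were not whole numbers, so they are no plain read totals and the true depth is unknown.

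Log2 ratios used a pseudocount of 1 CPM and a 2-fold threshold. Counting intervals are exact at 95% (Poisson for levels, binomial for shares, conditional for ratios; SciPy 1.17.1), and cover counting error only: no molecular identifiers are mentioned, so reads may not be independent molecules. Lengths are exon unions of GENCODE M21, in which 3607 symbols were found. Alternatives were 2 other pseudocounts, 3 other scalings (median-of-ratios size factors, centring on the median of listed genes, and scaling to unlisted reads, those outside the table) and a minimum of 10 CPM in the higher library. The calculation was tested on simulated data. With 1 library a group no test was run. Genes named are the 8 members, up to 3 further genes per list and direction, and the 2 most alike genes per member, of which 1 is not reported here; Twist2 and the cell type markers are named to check the labels. Members and lists were chosen with earlier results of these data known.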

Additional observations from a re-analysis of the deposited data

Results flagged for a closer look

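In Cdkn2b the ratios of the Twist2 to the GFP library lay on opposite sides of 0 in the 2 media, each with an interval, for counting error only, that left out 0. The log2 ratio of Twist2 to GFP cells was -0.45 in differentiation medium (35.2 against 48.3 CPM) and 1.10 in growth medium (36.5 against 16.5 CPM), a difference of -1.54. With 1 library a group this difference was not tested.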

How the results depend on the processing

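Each of the 40 member values (8 genes in 4 comparisons and the difference of responses) was recomputed under 6 alternatives. Of 240 values, 0 of those past 2-fold changed sign, 234 kept their sign and 22 crossed the 2-fold threshold. The minimum of 10 CPM only filters genes and dropped no member, so its 40 values could not change. They are counted among the 240. By size, 78 of the 240 moved further than their counting interval spans to either side. Cdkn1a in GFP differentiation, for example, went from 2.03 to 2.38 with size factors, 2.44 with median centring and 2.83 with scaling to unlisted reads. The counting intervals do not cover such shifts. The 6 that changed sign were all within 2-fold before and after. Cdkn2b in Twist2 differentiation went from -0.05 to 0.17 and 0.20. Rbl1 between the viruses went from -0.22 to 0.01 in growth medium and from 0.48 to -0.06 in differentiation medium. Ccnd3 between the viruses in differentiation medium went from -0.05 to 0.01. The largest move was that of Ccng1 in GFP differentiation, from -0.77 to 0.03. The counts of members moved by over 1.5 times in these cases. When libraries were scaled by reads outside the table, 1 member was lower in each differentiation response (against 3 in Twist2 and 2 in GFP cells), and 5 were lower with Twist2 in differentiation medium (against 1). Median centring also left 1 lower in Twist2 differentiation. In growth medium, a pseudocount of 5 CPM left 0 members higher with Twist2 (against 1) and size factors left 2 lower (against 4). The scalings shifted the median of all listed genes by up to 0.78 on the log2 scale, in GFP differentiation, and the cause of each moved count was not tested beyond that shift. Scaling to reads outside the table assumes that the divisors are totals. No paired analysis was possible because each group has 1 library, and no library could be left out for the same reason. Depth limits mainly E2f2 in Twist2 growth medium, with 21 reads.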
